A study of Homo sapiens with 6 samples.

Results

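Immediate early genes are transcribed within minutes of a stimulus, from transcription factors that already sit in the cell. The genes described here are EGR1, FOS, FOSB, JUN, JUNB, JUND, IER2, ATF3, ZFP36 and NR4A1, or 10 of the 26372 genes in the deposited table. They were chosen by symbol, and with the measured values of this comparison already known. Their differences between the groups are therefore given as a description, with no test.

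BE(2)-M17, a human neuroblastoma cell line that is propagated in culture, was the source of all RNA, which was polyadenylated. The study compared 3 control libraries with 3 libraries of cells in which GOMAFU, the nuclear long non-coding RNA listed as MIAT, had been knocked down. The series concerns GOMAFU and miR-137 in neuron differentiation. Both groups carry the replicate numbers 2, 3 and 4, and the transfection protocol names siRNAs, miRNA mimics and inhibitors at 100 pmol without saying which agent either group was given. All libraries come from bulk RNA of this single line, so a change in RNA per cell and a change in the share of responding cells cannot be told apart. The labels also do not say that replicates were separate cultures, and the spread between libraries may be technical.

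FOS and FOSB proteins pair with JUN, JUNB or JUND through a leucine zipper (bZIP) to form AP-1, a DNA-binding transcription factor. EGR1 is a zinc finger transcription factor, NR4A1 an orphan nuclear receptor and ATF3 a bZIP factor induced by stress, while ZFP36 (tristetraprolin) binds AU-rich mRNAs and shortens their life. In neurons and in tumours of the neural crest these genes answer growth factors, depolarization and cell stress through ERK, SRF with its ETS partners, and CREB. Their mRNAs are short-lived, so a steady-state level is a balance of synthesis and decay.

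The start regions of some of these genes match sites bound by SRF, ETS factors or CREB, and use of such sites was not tested. RefSeq's promoter table (GRCh38.p14) held all 10 genes with 12 annotated starts, since ATF3 and NR4A1 have 2 each. The 250 bases before each start were searched on both strands for 9 motifs. The following stretches are shown because they hold the CArG box bound by SRF, the short CREB site TGACG or a TATAA element, written 5′ to 3′ on the gene's strand, with these matches in capitals (CGTCA is TGACG on the other strand). Each stretch ends before the starts that RefSeq and GENCODE 29 annotate. They lie at chr5:138465332-138465429 on the plus strand (EGR1), chr14:75278752-75278773 plus (FOS), chr19:45467924-45467982 plus (FOSB), chr19:12791337-12791471 plus (JUNB) and chr19:18281635-18281834 on the minus strand (JUND).
EGR1: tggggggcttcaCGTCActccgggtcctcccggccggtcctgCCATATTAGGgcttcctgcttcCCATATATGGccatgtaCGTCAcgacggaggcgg
FOS: tggttgagcccgTGACGtttac
FOSB: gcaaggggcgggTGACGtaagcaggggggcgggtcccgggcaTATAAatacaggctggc
JUNB: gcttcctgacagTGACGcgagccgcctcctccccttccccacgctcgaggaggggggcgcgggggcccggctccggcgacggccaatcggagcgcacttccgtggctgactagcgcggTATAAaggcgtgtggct
JUND: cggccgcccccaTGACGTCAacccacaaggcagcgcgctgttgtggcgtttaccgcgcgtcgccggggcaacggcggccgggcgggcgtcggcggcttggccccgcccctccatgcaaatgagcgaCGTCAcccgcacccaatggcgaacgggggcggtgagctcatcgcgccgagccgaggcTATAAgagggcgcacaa

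EGR1 was the only member with a CArG box in this window, and it had 2, at 105 to 96 and 83 to 74 bases before the start. Of 9171 expressed genes with a start in the table, 0.905% held a CArG box. Only the first listed start of each of those genes was searched, whereas a member was counted from any of its starts. TGACG was present in 7 of 10 members against 30.9% of those genes, and its palindrome TGACGTCA, the full CREB site, in JUND only against 3.12%. TATAA was found in 6 of 10 members against 9.77%, with ATF3 counted through its second start only. In FOS, FOSB, JUNB, JUND and ZFP36 it lay 34 to 25 bases before the start, and in ATF3 it lay 231 to 226 bases before the second start.

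The other motifs were rarer among the 10 genes. GCGNGGGCG, the EGR site, occurred in EGR1 only (14.3% of genes), and CCGGAAG, an ETS site, in IER2 only (16.7%). The AP-1 site TGANTCA (3.37% of genes), the NF-kappa-B site (11.7%) and the interferon-stimulated response motif (2.29%) were in no member. A match is a description of these letters, and a window without one says nothing about the factor. NR4A1 was the member without a match to any of the 9 motifs at either start.

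JUND dominated the levels of the 10 genes in control cells. FPKM (fragments per kilobase and per 1e6 mapped) takes out transcript length, which lets levels of different genes be set side by side. In controls the order of mean levels was JUND (81.7 FPKM), JUNB (40.1), JUN (37.9), IER2 (26.5), NR4A1 (10.2), ATF3 (6.07), ZFP36 (5.02), EGR1 (2.64), FOS (1.80) and FOSB (0.144). JUNB and JUN overlapped in their 3 control values, as did EGR1 and FOS, while every other pair of neighbours in that order was separate. JUND stood above 96.2% of all genes in the table and FOSB above 44.9%. The order of means was the same in knockdown libraries, where only NR4A1 and ATF3 overlapped among neighbours.

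**Figure D1:**
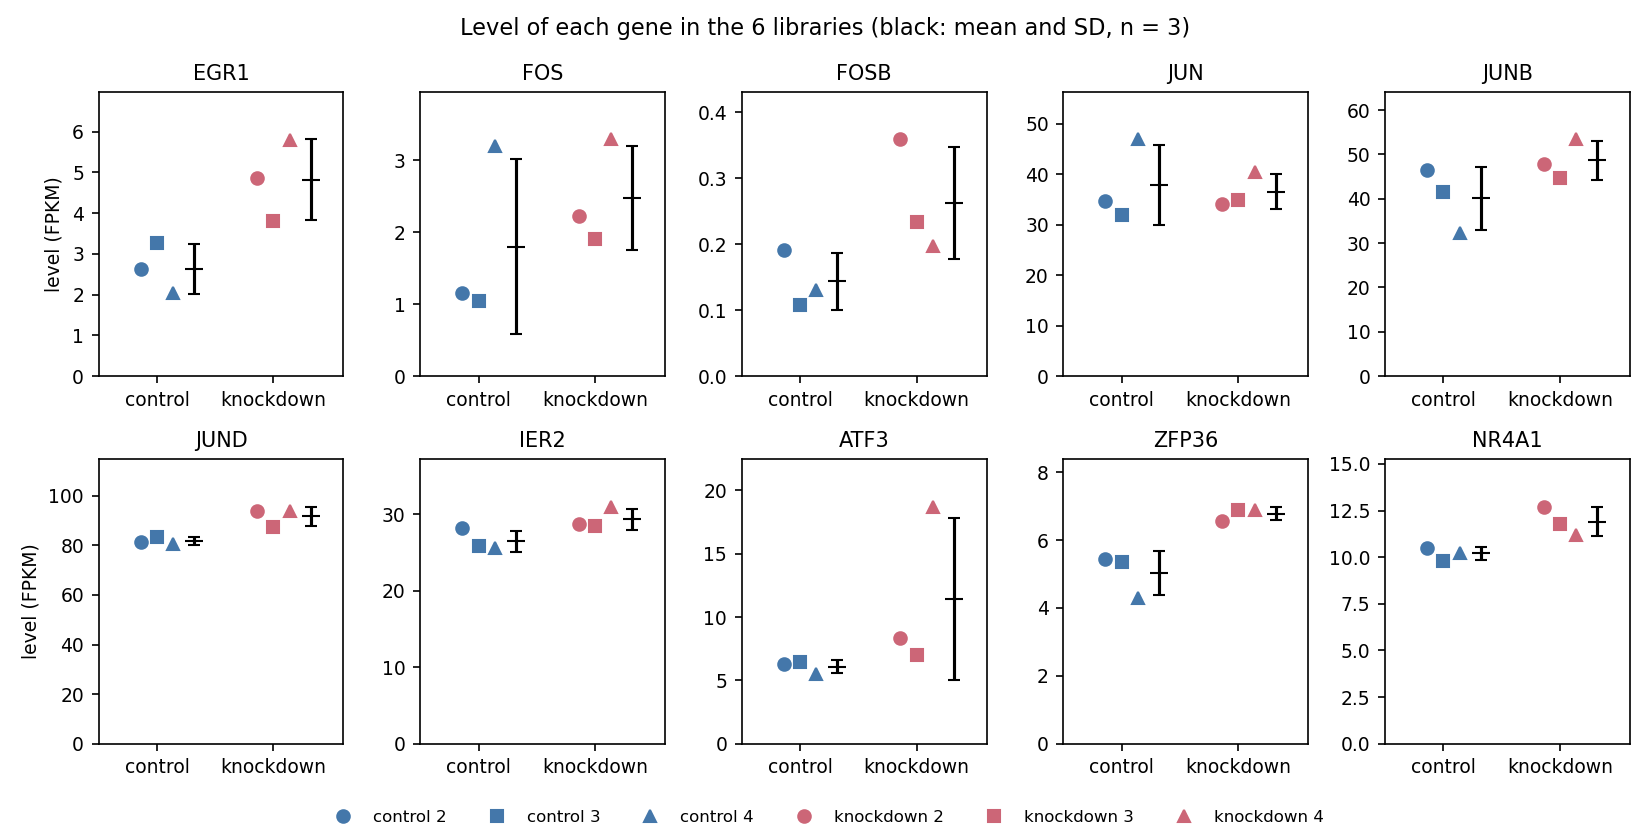
FPKM of each of the 10 genes (y axis, from 0, own scale per gene) in control libraries (blue) and knockdown libraries (red), with the replicate number as the marker and the mean ± SD of 3 libraries in black. For EGR1, FOSB, JUND, IER2, ATF3, ZFP36 and NR4A1 all 3 knockdown points lie above all 3 control points, whereas FOS, JUN and JUNB overlap.

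For 7 of the 10 genes every knockdown value lay above every control value, namely for EGR1, FOSB, JUND, IER2, ATF3, ZFP36 and NR4A1. No member lay lower without overlap. The fit held the 12164 genes with a mean of 1 FPKM or more over the 6 libraries. FOSB missed that mean, and the other 9 members were at 1 FPKM or more in every library. Among those 9, 6 were higher without overlap, and among all 12164 genes 4.01% were higher and 4.35% lower without overlap. This comparison chose the members, so nothing is read from that count. By limma with Benjamini-Hochberg adjustment 0% of the 12164 genes passed an adjusted p of 0.05 in either direction, the 9 members included, while an unadjusted p under 0.05 was reached by 118 genes that were higher and 145 that were lower.

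The members did not share 1 pattern over the libraries. The median of the 9 members, as log2(FPKM + 1) minus the control mean, was 0.29, 0.17 and 0.40 in knockdown replicates 2, 3 and 4, and 0.05, 0.03 and -0.05 in control replicates 2, 3 and 4. The median over all kept genes stayed within 0.01 of 0 in each library. The median of the fitted log2 differences was 0.28 for the members and -0.01 for all kept genes. Within the knockdown group, replicate 4 held the highest value of 8 of the 10 genes, and replicate 3 the lowest value of 6.

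**Figure D2:**
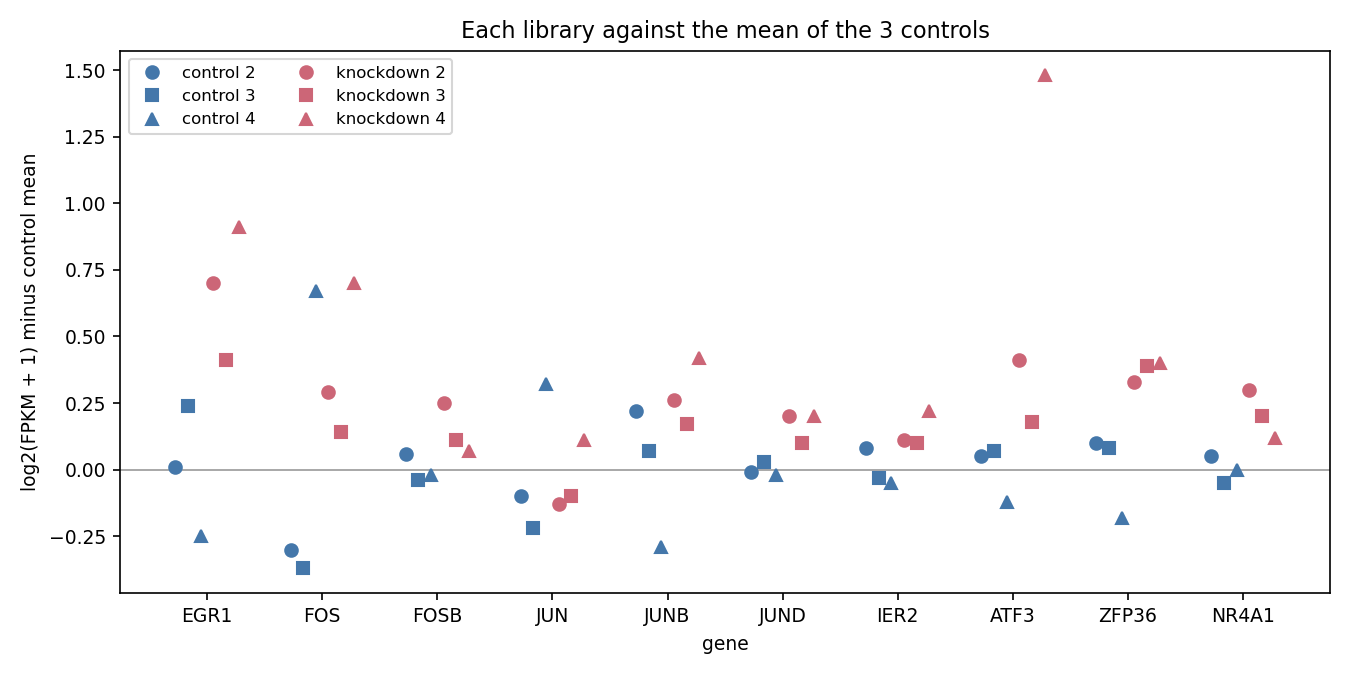
Log2(FPKM + 1) of each gene minus its mean over the 3 controls (y axis) in the 6 libraries; the grey line is the control mean. ATF3 in knockdown replicate 4 is the highest point at 1.48, and for FOS the control library numbered 4 lies beside the knockdown library numbered 4.

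EGR1, on chromosome 5 (138465490 to 138469315, plus strand, GENCODE 29), was low and higher in knockdown libraries. Its values were 2.64, 3.26 and 2.03 FPKM in control replicates 2, 3 and 4 and 4.87, 3.80 and 5.79 FPKM in knockdown replicates 2, 3 and 4. The groups did not overlap, and knockdown replicate 3 lay closest to the controls. The knockdown mean of 4.82 ± 0.99 FPKM was 1.82 times the control mean of 2.64 ± 0.61 (SD, n = 3 each), a log2 difference of 0.68 (SE 0.17). With the smallest step in the table taken as 1 fragment, these values rest on about 93 to 150 fragments in controls and 240 to 290 in knockdown libraries, a counting error of 5.9% to 10% per library. Without both libraries numbered 4 the log2 difference was 0.43.

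FOS, on chromosome 14 (75278774 to 75282230, plus strand), was highest in the libraries numbered 4 of both groups. It was measured at 1.15, 1.04 and 3.20 FPKM in control replicates 2, 3 and 4, against 2.23, 1.91 and 3.29 FPKM in the knockdown libraries of the same numbers. Its highest 2 values were thus the control and the knockdown library numbered 4. Means were 1.80 ± 1.22 and 2.48 ± 0.72 FPKM (SD, n = 3 each), with a log2 difference of 0.38 (SE 0.30) that was 0.71 without control replicate 4, 0.23 and 0.19 without control replicates 2 and 3, and 0.22 without knockdown replicate 4. Without both libraries numbered 4 the groups did not overlap and the log2 difference was 0.55, and with library weights it was 0.61. About 34 to 110 fragments stood behind each value, a counting error of 9.4% to 17%. The 3.09-fold range among the controls was wider than that.

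FOSB, on chromosome 19 (45467995 to 45475179, plus strand), was close to the floor of the table. The controls held 0.192, 0.108 and 0.130 FPKM in replicates 2, 3 and 4, and the knockdown libraries 0.359, 0.233 and 0.198 FPKM. No control reached the lowest knockdown value, but control replicate 2 and knockdown replicate 4 differed by less than their counting error of about 29% each, with about 12 fragments in both. The ratio of means was 1.83, from about 6 to 12 fragments per control and 12 to 22 per knockdown library. At this depth that ratio carries little weight.

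JUN, on chromosome 1 (58780788 to 58784327, minus strand), was the member whose fitted difference was below 0. Control replicates 2, 3 and 4 stood at 34.7, 32.0 and 46.9 FPKM and knockdown replicates 2, 3 and 4 at 34.1, 34.9 and 40.5 FPKM. As with FOS, the library numbered 4 was the highest of its group in both groups, and the highest value of all was a control. The log2 difference was -0.04 (SE 0.15), and its sign turned when single libraries were left out, to 0.12 without control replicate 4 and 0.01 without knockdown replicate 2.

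JUNB, on chromosome 19 (12791496 to 12793315, plus strand), moved the other way in control replicate 4. Its values were 46.4, 41.6 and 32.3 FPKM in control replicates 2, 3 and 4 and 47.9, 44.7 and 53.4 FPKM in knockdown replicates 2, 3 and 4. Control replicate 2 lay above knockdown replicate 3, so the groups overlapped. The means of 40.1 ± 7.16 and 48.7 ± 4.39 FPKM (SD, n = 3 each) gave a log2 difference of 0.28 (SE 0.14), which was 0.14 without control replicate 4 and 0.07 without both libraries numbered 4. JUN was 0.748 and 0.768 times JUNB in control replicates 2 and 3, 1.45 times in control replicate 4, and 0.712 to 0.779 times in the knockdown libraries.

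JUND, on chromosome 19 (18279760 to 18281622, minus strand), varied least among the controls. It stood at 81.2, 83.6 and 80.4 FPKM in control replicates 2, 3 and 4, against 93.9, 87.4 and 94.0 FPKM in the knockdown libraries of the same numbers. All knockdown values lay above the controls, though by little: the ratio of means was 1.12, and the log2 difference 0.16 (SE 0.07) ran from 0.14 to 0.20 over all 15 alternatives.

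**Figure D3:**
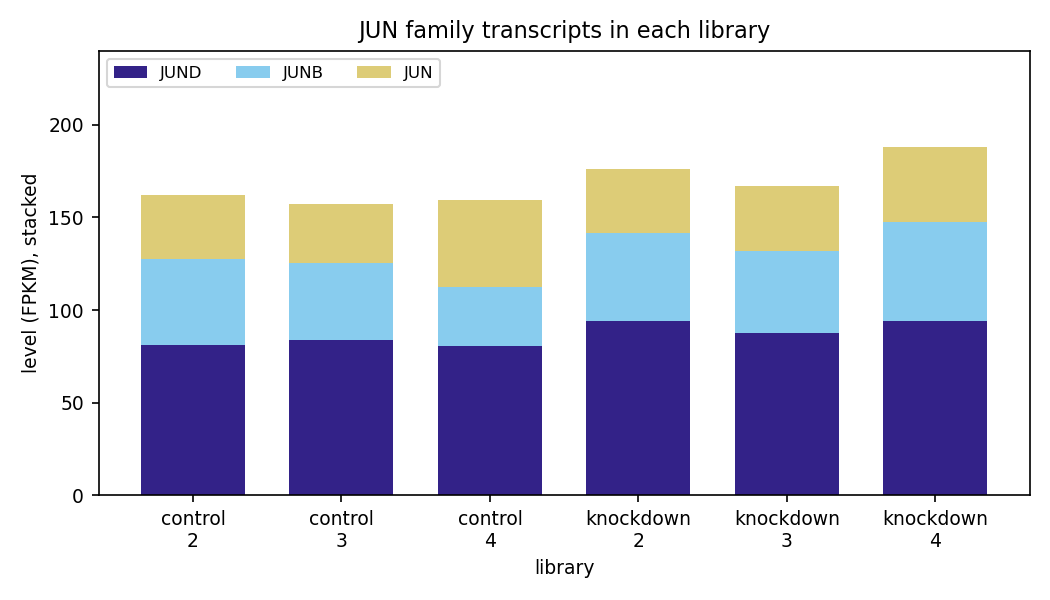
FPKM of JUND, JUNB and JUN (stacked bars from 0) in each of the 6 libraries. JUND is the largest part of every bar, and control replicate 4 has more JUN and less JUNB than control replicates 2 and 3 at about the same total.

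JUND was the largest part of the JUN family transcripts in every library. It made up 51.2 ± 1.73% of the summed JUN, JUNB and JUND FPKM under control and 51.9 ± 1.71% under knockdown (SD, n = 3 each). JUN's share was 21.4%, 20.3% and 29.4% in control replicates 2, 3 and 4 and 19.4% to 21.5% under knockdown, and JUNB's 28.6%, 26.5% and 20.3% and 26.8% to 28.4%, so control replicate 4 stood apart in both. The summed level of the 3 genes was 162, 157 and 160 FPKM in control replicates 2, 3 and 4 and 176, 167 and 188 FPKM in the knockdown libraries. The FOS side was far smaller, at 3.58 to 6.47 FPKM for FOS, FOSB, FOSL1 and FOSL2 together in controls and 4.63 to 5.58 in knockdown libraries. FOSL2, a FOS relative that is no member, was 46.8% to 66.5% of that sum in controls and 35.8% to 53.5% in knockdown libraries, and FOS 28.2% to 49.5% and 40.0% to 59.7%. JUN family transcripts outnumbered FOS family transcripts 24.7 to 43.9 times in controls and 31.5 to 36.1 times in knockdown libraries.

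IER2, which encodes a nuclear protein, lies on chromosome 19 (13150415 to 13154908, plus strand). Its levels were 28.2, 25.9 and 25.6 FPKM in control replicates 2, 3 and 4 and 28.7, 28.5 and 31.0 FPKM in knockdown replicates 2, 3 and 4. The groups touched: knockdown replicate 3 was only just above control replicate 2. The ratio of means was 1.11, and the log2 difference of 0.14 (SE 0.07) was 0.08 without both libraries numbered 4.

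ATF3, on chromosome 1 (212565334 to 212620777, plus strand), owed most of its difference to a single library. It was measured at 6.31, 6.43 and 5.48 FPKM in control replicates 2, 3 and 4, against 8.37, 7.01 and 18.7 FPKM in the knockdown libraries of the same numbers. Knockdown replicate 4 was 3.08 times the control mean, against 1.38 and 1.15 times in replicates 2 and 3. The log2 difference of 0.69 (SE 0.32) was 0.29 without knockdown replicate 4 and 0.23 without both libraries numbered 4, and the groups remained apart in both cases. ATF3 is also a target of ATF4, the main factor of the integrated stress response. ATF4 mRNA stood lower in every knockdown library (353 to 395 FPKM) than in any control (402 to 438 FPKM). The part of ATF4 in the ATF3 values was not tested.

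ZFP36, on chromosome 19 (39406813 to 39409412, plus strand), was the steadiest of the members with a ratio above 1.3. Control replicates 2, 3 and 4 held 5.44, 5.35 and 4.28 FPKM, and knockdown replicates 2, 3 and 4 held 6.55, 6.88 and 6.90 FPKM. Each knockdown library was 1.30 to 1.37 times the control mean, so the difference did not rest on knockdown replicate 4. The log2 difference of 0.37 (SE 0.10) ran from 0.27 to 0.44 over the alternatives, and it was 0.28 without control replicate 4, the lowest control.

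NR4A1, on chromosome 12 (52022832 to 52059507, plus strand), had an order of its own. It stood at 10.5, 9.80 and 10.2 FPKM in control replicates 2, 3 and 4, against 12.7, 11.8 and 11.2 FPKM in the knockdown libraries of the same numbers. Its lowest knockdown value was in replicate 4, which among the other members held only for FOSB. The ratio of means was 1.17 and the log2 difference 0.21 (SE 0.08). Its relative NR4A2 averaged 1.93 FPKM under control and 1.75 under knockdown. NR4A3, too low to be kept, averaged 0.0692 and 0.334 FPKM. Its controls reached at most 0.126 FPKM, and knockdown replicates 2, 3 and 4 held 0.139, 0.161 and 0.702 FPKM.

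Several quantities of the whole libraries moved beside these values. MIAT was lower in every knockdown library than in any control, with a knockdown mean 29.2% of the control mean (log2 difference -1.42, SE 0.27; adjusted p = 0.9998, limma; exact two-sided permutation p = 0.1, the smallest that 3 against 3 allows). It was least reduced in knockdown replicate 4, at 3.21 FPKM against 1.27 and 1.32 in replicates 2 and 3. The summed FPKM of 45 interferon response genes was 192 to 230 in controls and 823, 263 and 14514 in knockdown replicates 2, 3 and 4. EGR1, FOS, JUNB, JUND, IER2 and ATF3 had the same order of knockdown libraries, whereas FOSB, JUN, ZFP36 and NR4A1 did not. Within that order, JUND differed by less than its counting error between replicates 2 and 4 (93.9 and 94.0 FPKM). So did IER2 between replicates 2 and 3 (28.7 and 28.5 FPKM). The part of the interferon genes in the members' values was not tested. Without knockdown replicate 4 the members' median log2 difference was 0.22, and 6 of 9 were higher without overlap, as were 11.1% of all genes. Relative depth, from the smallest steps of low values, was 0.972 to 1.10 times that of control replicate 3, except for 1.36 in knockdown replicate 3.

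Markers of the labelled cell type were present, and those of Schwann, endothelial, leukocyte and epithelial cells were low. Of 18 adrenergic neuroblastoma markers 16 reached a mean of 1 FPKM, and their summed level was 6589 to 6790 FPKM in controls and 5695 to 6173 in knockdown libraries. Mesenchymal neuroblastoma markers had 6 of 16 at that level, with sums of 401 to 493 and 388 to 489 FPKM. Among them VIM alone held 193 to 302 FPKM in controls and 146 to 294 in knockdown libraries. PRRX1, TWIST2, COL1A2 and MEOX1 were at 0 in all libraries. Schwann cell markers (0 of 8) summed to 1.73 to 2.44 and 2.34 to 2.79 FPKM with CDH19 and FOXD3 at 0, and endothelial markers (0 of 8) to 0.55 to 0.793 and 0.455 to 0.786 with ROBO4 at 0. Leukocyte markers (1 of 10) summed to 1.92 to 2.49 FPKM in controls and 2.00 to 3.74 in knockdown libraries with CD3E at 0, and epithelial markers (3 of 8) to 4.20 to 7.24 and 5.81 to 6.49 with KRT5, KRT14 and ESRP1 at 0. The part of the lower adrenergic sum in the members' values was not tested.

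The spread among the 3 controls does not use the comparison that chose the members. Over the 9 kept members the median SD of log2(FPKM + 1) among controls was 0.16, and over all 12164 kept genes it was 0.11. FOS (SD 0.58) varied more among controls than 99.3% of kept genes, JUN (0.28) more than 92.8%, JUNB (0.26) more than 90.9% and EGR1 (0.25) more than 89.4%. At the other end JUND (0.03) varied more than only 6.16% of kept genes, NR4A1 (0.05) more than 14.5% and IER2 (0.07) more than 29.7%. ATF3 (0.11) and ZFP36 (0.16) lay between these. Control replicate 4 held the lowest control value of 6 of the 10 genes and the highest of FOS and JUN.

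**Figure D4:**
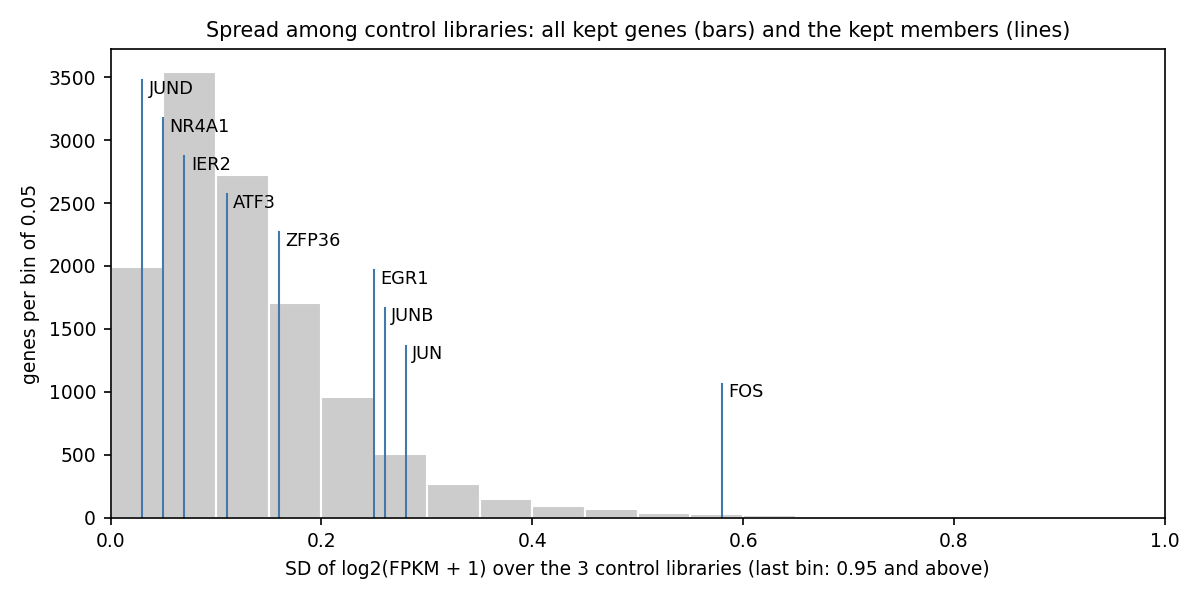
Number of kept genes (y axis) by the SD of log2(FPKM + 1) over the 3 control libraries (x axis, bins of 0.05), with blue lines at the SDs of the 9 kept members (line height carries no value). FOS lies far to the right at 0.58, and JUND at the left end at 0.03.

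Relatives of the members and other immediate early genes were counted from lists; no gene of any list passed the limma threshold in either direction (adjusted p = 0.9998 for each gene named from them). Of 12 other genes of the EGR, FOS, NR4A, ZFP36 and IER groups 6 were kept, with a median log2 difference of 0.12, 4 above 0 and none without overlap. IER3, a survival factor, stood at 28.9, 24.5 and 12 FPKM in control replicates 2, 3 and 4 and at 37.9, 32.6 and 19.6 in the knockdown libraries, with both libraries numbered 4 lowest in their group. NR4A2 differed by -0.09 on the log2 scale. EGR2, EGR3 and EGR4 reached at most 0.0678, 0.126 and 0.0822 FPKM in any library.

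The 36 other immediate early genes had 29 kept members with a median log2 difference of 0.20. Without overlap 6 of them were higher and 2 lower, and 4 had an unadjusted p under 0.05, all of them higher. Over the 28 with a control mean of at least 1 FPKM the median was 0.19, with 5 higher and 2 lower without overlap. Among all kept genes 4.01% were higher and 4.35% lower without overlap. MCL1, an anti-apoptotic BCL2 relative and the most abundant, stood at 101, 110 and 95.1 FPKM in controls, against 121, 111 and 122 under knockdown. KLF4, a zinc finger factor, reached the filter only through knockdown replicate 4, with 0.343, 0.136 and 9.93 FPKM in knockdown replicates 2, 3 and 4 and at most 0.0922 in a control. TRIB1, a pseudokinase, lay lower without overlap at 17.9, 19.6 and 22.4 against 16.7, 17.5 and 17.5 FPKM. Relative to the control mean, the list's median by library was 0.12, 0.05 and -0.12 in control replicates 2, 3 and 4 and 0.24, 0.21 and 0.11 in the knockdown libraries.

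**Figure D5:**
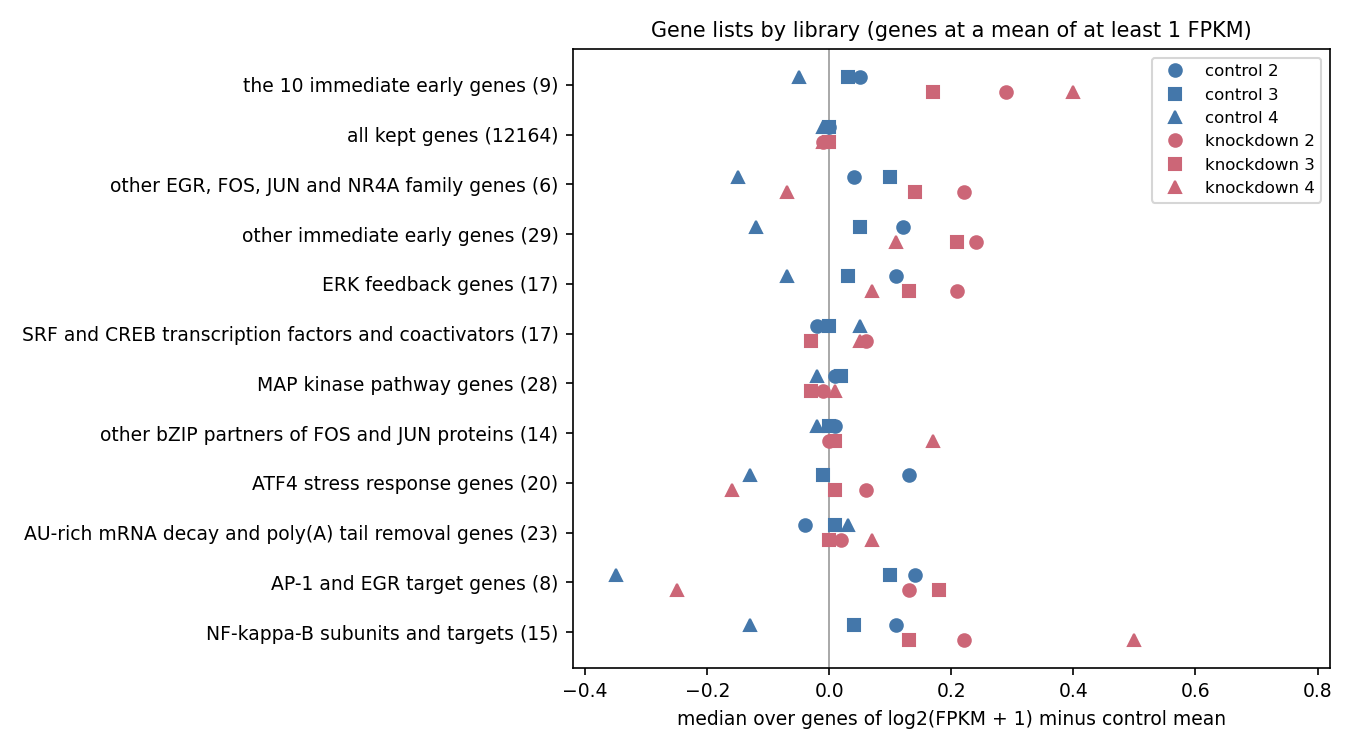
Median over the kept genes of each list (number kept in brackets) of log2(FPKM + 1) minus the gene's control mean (x axis), in control (blue) and knockdown (red) libraries by replicate number. For the 10 immediate early genes, which were chosen on this comparison, the 3 knockdown medians of 0.17 to 0.40 lie to the right of all control medians; the interferon list, far outside this range, is not drawn.

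Genes that carry signals to these promoters had median differences in mRNA level near 0, and the activity of their proteins was not measured. The 17 kept SRF, ETS and CREB factors and coactivators had a median log2 difference of 0.04 (9 above 0, 8 below; 0 higher and 1 lower without overlap). ELK4, an ETS partner of SRF, differed by 0.26, MKL1, an SRF coactivator, by -0.16, and CRTC2, a CREB coactivator and the most abundant, by 0.09 on the log2 scale. MKL1 was the gene lower without overlap, at 8.31 to 8.55 FPKM in controls and 6.99 to 7.86 in knockdown libraries. The 28 MAP kinase pathway genes had a median of 0.02, with 2 higher and 2 lower without overlap, MAPK10 at 0.31, MAP2K6 at -0.29 and MAP2K2 at -0.04. ERK feedback genes, which ERK signalling induces to dampen itself, had 14 of 17 kept genes above 0 with a median of 0.08. Among all kept genes 5676 of 12164 were above 0. SPRY2, the kept ERK feedback gene higher without overlap, stood at 15.1 to 16.6 FPKM in controls and 18.9 to 21.4 in knockdown libraries (a gene named after its values were seen). By the list rule ETV5 differed by 0.32, ETV1 by -0.12 and SPRY4, the most abundant, by 0.08.

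Medians of the partner and target lists ran from -0.07 for ATF4 stress response genes to 0.22 for NF-kappa-B genes. Among 14 kept bZIP partners the median log2 difference was 0.09, with ATF4 lowest at -0.18 and BATF2, an interferon-induced bZIP factor, at 18.3 FPKM in knockdown replicate 4 and at most 0.639 FPKM in any other library. The 20 ATF4 stress response genes had a median of -0.07 and 13 below 0; PPP1R15A, a phosphatase subunit induced in stress, stood at 14.8 to 18.3 FPKM in controls and at 23.8, 21.9 and 57.7 in knockdown replicates 2, 3 and 4, and the serine synthesis enzyme PHGDH differed by -0.19. AU-rich decay and deadenylation genes, the setting in which ZFP36 acts, had a median of 0.04 over 23 genes, with the exonuclease XRN1 at 0.38, TOB2 at -0.10 and HNRNPD at -0.04. Of 26 AP-1 and EGR targets 8 were kept, with a median of 0.01; CCND1 (cyclin D1) averaged 254 FPKM under control and 263 under knockdown, GDF15 differed by 0.30 and CD44 by -0.18. NF-kappa-B genes had 15 kept, with a median of 0.22 and 5 higher without overlap. Over the 13 with a control mean of at least 1 FPKM these were 0.18 and 4. Among all kept genes 4.01% were higher without overlap. NFKBIA, the inhibitor that NF-kappa-B induces, stood at 59.8 to 71.7 FPKM in controls. Under knockdown it was at 81.0, 74.3 and 103 FPKM in replicates 2, 3 and 4. SOD2 differed by -0.08, and CCL5 was at 189 FPKM in knockdown replicate 4 and at most 5.39 elsewhere.

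Interferon response genes were mostly near 0 in controls. Of 45 listed 42 were kept, but 32 of these had a control mean under 1 FPKM and passed the filter only through knockdown libraries, so their direction was fixed by it. The other 10 had fitted differences above 0 with a median of 2.32. Of these 10, 6 were higher without overlap, as were 4.01% of all kept genes. By library the median of the 42 was 1.99, 0.26 and 6.27 over the control mean in knockdown replicates 2, 3 and 4. That median includes the 32 genes kept only through knockdown libraries, so nothing is read from its size. ISG15, a ubiquitin-like protein that interferon induces, was at most 0.149 FPKM in a control and at 48.6, 2.40 and 1622 FPKM under knockdown. IFI6 averaged 10.3 and 1417 FPKM, and LGALS3BP, with the smallest difference of the list, 144 and 365.

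The genes with the most similar profile were sought over the 6 libraries. The mean profile of the 9 kept members lay within 0.02 of the control mean in the controls and over it by 0.28, 0.18 and 0.51 in knockdown replicates 2, 3 and 4. Among 3010 genes that averaged 5 FPKM or more with a log2 difference of at least 0.1 in size, the smallest root mean square differences from that profile belonged to CCDC184 (0.041), DBP (0.051), BRI3 (0.077), ZNF211 (0.079) and H1FX (0.079). DBP, a clock-controlled bZIP factor, stood at 19.1, 18.7 and 18.9 FPKM in controls and at 21.8, 20.3 and 26.1 in knockdown replicates 2, 3 and 4. H1FX, a linker histone, stood at 303, 330 and 302 and at 416, 347 and 450 FPKM. These genes were compared in the same 6 libraries, and the likeness is a description.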

How the data were processed

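Gene-level FPKM values of 6 libraries were deposited by the authors, 1 column each; per the submitters' processing notes TopHat2, Cuffdiff and hg38 were used, while their versions and the gene annotation are not given in these sources. No count model was run. Genes averaging 1 FPKM or more were kept, log2(FPKM + 1) was compared with limma 3.58.1 (R 4.3.3; eBayes with trend, no covariate, two-sided), and p-values were adjusted by Benjamini-Hochberg over 12164 genes. This scale understates changes of low genes. The fit was tested only on simulated data in which all 6 libraries had noise scaled to the spread of the controls. No simulated library stood apart as knockdown replicate 4 does, so the check does not cover such a library. Members, lists and alternatives were chosen with earlier results of these data known. Per list, the genes with the highest and the lowest log2 difference and the highest mean are named; 261 list entries matched by symbol and 5 by an older symbol (RefSeq). Depth in fragments is an estimate: among 63 genes with 1 transcript in GENCODE 29, the smallest steps of 37 gave the same total. It covers counting error only. Alternatives were 2 pseudocounts, 2 filters, 2 scalings, library weights, a replicate term and libraries left out.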

Additional observations from a re-analysis of the deposited data

How the results depend on the processing

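With limma library weights, which ranged from 0.153 for knockdown replicate 4 to 7.98 for control replicate 3, the threshold was passed by 9 higher and 13 lower genes, MIAT among them at a log2 difference of -1.58. Without both libraries numbered 4, 1 gene was lower past the threshold, MIAT itself, at -1.54. No member passed under any of the 15 alternatives. The smallest adjusted p of a member was 0.0546, in limma with library weights. The comparison chose the members, so nothing is read from that value. The members' median log2 difference stayed between 0.19 and 0.34, and the count of members higher without overlap between 5 and 7, with up to 17% of all genes higher without overlap when libraries were left out. Of 133 values of single members under alternatives, 131 moved by less than the gene's own SD between replicates. The others were NR4A1, at 0.31 with library weights, and JUNB, at 0.07 without both libraries numbered 4. That SD includes any outlying library, so it is wide for members that depend on 1 library, and the count does not show those to be stable. ATF3 ran from 0.23 to 0.94 and FOS from 0.19 to 0.71 over the settings. JUN was above 0 in 4 of 16 settings, and each other kept member above 0 in all of its settings. Deviations from the group mean correlated across genes at 0.092, 0.168 and 0.322 between control and knockdown libraries numbered 2, 3 and 4. Control replicate 2 correlated more with knockdown replicate 3 (0.318), so the numbers were not taken to pair the samples. The value for the libraries numbered 4 was the highest of all pairs. Each library numbered 4 correlated negatively with those numbered 2 and 3 of the other group (-0.193 to -0.336). What the libraries numbered 4 share was not tested. With the replicate block, 0 genes passed and the members' median was 0.28. MIAT has no value at a mean of at least 5 FPKM, where it is filtered out. FOSB rests on too few fragments for its ratio to be told from counting error in the closest libraries.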

Other observations

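Both libraries numbered 4 stood lowest in their groups for several genes that growth factor signalling induces, chosen here after their values were seen. SGK1, a serum-induced kinase, was at 4.40, 3.20 and 0.531 FPKM in control replicates 2, 3 and 4 against 4.64, 5.06 and 0.729 FPKM under knockdown in the same order. ETV4, an ETS factor downstream of ERK, was at 36.7, 33.9 and 20.8 FPKM and at 36.4, 40.8 and 18.2 FPKM in the same order. DUSP5, an ERK phosphatase, was at 2.13, 1.95 and 0.642 and at 2.43, 2.62 and 1.07 FPKM. FOS and JUN had the opposite order, with both libraries numbered 4 highest in their groups, while EGR1 and JUNB were lowest in control replicate 4 and highest in knockdown replicate 4. The labels do not say what the numbers stand for.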
